A study of Vitis vinifera with 15 samples.

Results

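The skins of Centennial Seedless and Victoria berries were compared by RNA sequencing, as 6 of the 15 libraries of a study of grape aroma. Both are green-skinned table grapes (Vitis vinifera). Centennial Seedless was taken by the study as a cultivar with muscat aroma and Victoria as the neutral one, so that the comparison holds skin colour alike while the aroma class differs. The 3 libraries of each cultivar were chosen by the cultivar label alone. The other 9 libraries, 3 each of Shine muscat, Midknight Beauty and Summer Black, were used only to place the 2 cultivars among all 5. The study describes no treatment or genetic change of any vine, and all grew in a single vineyard. The labels place every library at the ripening stage and number the 3 as repeats, whereas the study's methods section also describes skin taken at 3 maturity stages for sequencing. The numbers were treated as replicates here, and the p-values measure the spread between these libraries, which may include stage. With 1 cultivar on each side, the aroma class and everything else that sets the 2 cultivars apart cannot be told apart.

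Muscat aroma in grape rests mainly on free monoterpenols such as linalool and geraniol, which accumulate largely in the skin. Their precursors come from the plastid methylerythritol phosphate pathway, whose entry step is catalysed by deoxyxylulose phosphate synthase (DXS), and terpene synthases (TPS) turn the prenyl diphosphates into the terpene skeletons. Cytochrome P450 enzymes and alcohol or short-chain dehydrogenases can oxidise terpenes further. UDP-glycosyltransferases (UGT) can bind the alcohols to sugars, which makes them odourless, and beta-glucosidases (BGLU) can release them again. Cinnamoyl-CoA reductase (CCR) belongs to the phenylpropanoid branch, from which benzene-ring volatiles and lignin derive.

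The study named 20 candidate genes, of these families and of MYB and GATA transcription factors. They were chosen with these libraries among others, so that their behaviour here is no independent evidence of their direction. The study placed its cytochrome P450, CCR and dehydrogenase candidates in phenylpropanoid synthesis. The primers that the study designed for quantitative PCR are the only sequences at hand for the candidates. They mark the transcripts that the study targeted for the 6 candidates that passed the test in this comparison, and they show which candidates share a run of primer bases. Only exact runs between primers of the same side were compared, so how close the paralogues lie in sequence was not tested. All are written 5′ to 3′, and capitals mark a run of bases shared with the primer of a paralogue. For the 6 candidates that passed the test no run of 15 bases or more was shared with the same-side primer of another candidate, so none of their bases is in capitals.
VvUGT VIT_17s0000g07070 forward: ttttagctcacccttctgttg
VvUGT VIT_17s0000g07070 reverse: ccaccttccatttgtcgcata
VvCCR VIT_13s0067g00620 forward: gtatgtgctttcaaagacgcta
VvCCR VIT_13s0067g00620 reverse: aattgattgttggctgtaggg
VvSDR VIT_08s0040g01200 forward: agagcgaatgcaatagcacct
VvSDR VIT_08s0040g01200 reverse: aatcaagtatcgcaccaggga
VvTPS VIT_13s0084g00010 forward: aggagaaagtaccttggagcag
VvTPS VIT_13s0084g00010 reverse: gaaccaccttgcctctaacc
VvTPS VIT_00s0271g00010 forward: atcccagatccaaggttgtcaga
VvTPS VIT_00s0271g00010 reverse: gagtgagttcatcaagggttcca
VvTPS VIT_13s0067g00050 forward: aagaagacgcccgtaaacac
VvTPS VIT_13s0067g00050 reverse: ggaatgggctcaatgagtag

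A pair of terpene synthases and a pair of alcohol dehydrogenases did share primer sequence, so that reads of each pair may have been divided between its members and their separate values are less certain. Other paralogues may share reads as well, which was not tested.
VvTPS VIT_13s0067g00370 forward: aGATGTTGTTGACAGGTGGGATA
VvTPS VIT_13s0067g00380 forward: GATGTTGTTGACAGGTGGGATA
VvADH VIT_00s0615g00020 reverse: GTGGTGGTTCCATCATAGTAAGTG
VvADH VIT_00s0615g00030 reverse: GTGGTGGTTCCATCATAGTAAGTG

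Expression was given as FPKM, a fragment count scaled to transcript length and to the mapped fragments of the library, for 31924 genes, and the table does not give the number of reads behind a value. The 6 libraries summed to between 720296 and 765019 FPKM, and between 9440 and 10178 genes were listed at 0 in each. Centennial Seedless 1 stood further from Centennial Seedless 2 and 3 than these stood from each other, with a root-mean-square difference of 0.64 and 0.63 on the log2(FPKM + 1) scale, against 0.42. Victoria 3 likewise differed by 0.69 and 0.60 from Victoria 1 and 2, which differed by 0.44. The calls were therefore also made without these libraries.

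Of 18238 genes with at least 1 FPKM in at least 3 of the 15 libraries, 168 (0.921%) were differentially expressed genes (DEGs), that is, genes with a log2 difference of at least 2 in either direction and a Benjamini-Hochberg adjusted p of at most 0.01 in limma on log2(FPKM + 1). Expression was higher in Centennial Seedless for 78 of them (0.428%) and lower for 90 (0.493%). At any size of difference, 384 genes (2.11%) reached an adjusted p of at most 0.01, 172 of them higher and 212 lower in Centennial Seedless. The median log2 difference was 2.52 over the 78 higher DEGs and -2.83 over the 90 lower DEGs, beside 0.01 over all genes tested. Most DEGs were of low or moderate level. The mean of the higher cultivar was under 10 FPKM for 87 DEGs, from 10 to 100 FPKM for 73, and at least 100 FPKM for 8. On the log2(FPKM + 1) scale the change of low genes is understated.

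The number of calls depended on every library. It was 112 without Centennial Seedless 1, 68 without Centennial Seedless 2, 81 without Centennial Seedless 3, 89 without Victoria 1, 55 without Victoria 2 and 122 without Victoria 3. All 168 DEGs kept their direction in each of these 6 fits, and 42 of them (16 higher, 26 lower) were called in all 6, whereas 25 were called in none. With Centennial Seedless 1 and Victoria 3 both left out, limma called 0 genes. The smallest adjusted p was then 0.0134, 3606 genes had an unadjusted p under 0.05, 165 of the 168 DEGs had an adjusted p of at most 0.05, and 159 kept a log2 difference of at least 2. In the plot of difference against level, the lower DEGs reach further from 0 than the higher ones.

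**Figure D1:**
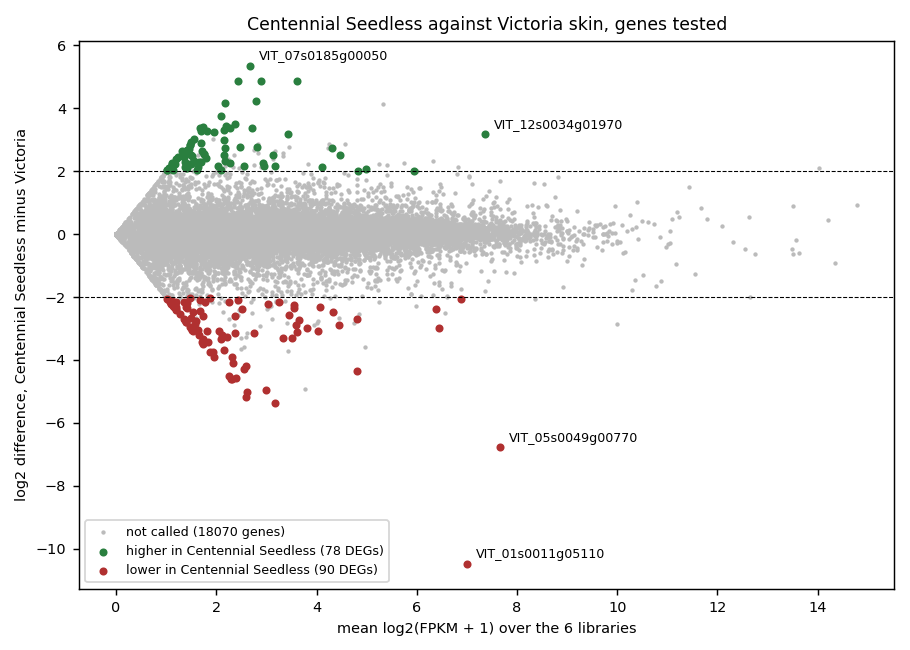
Log2 difference (Centennial Seedless minus Victoria, y axis) against the mean log2(FPKM + 1) over the 6 libraries (x axis), 1 point per gene tested. Green points are the 78 DEGs higher and red points the 90 DEGs lower in Centennial Seedless, and dashed lines mark differences of 2 and -2; VIT_01s0011g05110 lies lowest, at -10.47.

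Among the 20 candidate genes, 3 were DEGs higher in Centennial Seedless (15%, beside 0.428% of all genes tested) and 3 were DEGs lower (15%, beside 0.493%). The median log2 difference over the 20 was 0.37. Every library of 1 cultivar lay above every library of the other in 16 of the 20 (80.0%), 10 of them higher and 6 lower in Centennial Seedless, beside 22.7% of all genes tested. Of the 6 called candidates, 2 were called with any 1 library left out.

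The 3 higher candidates were a glycosyltransferase, a cinnamoyl-CoA reductase and a short-chain dehydrogenase gene. The glycosyltransferase gene VvUGT VIT_17s0000g07070 had 14.1, 13.5 and 16.4 FPKM in Centennial Seedless, against 0.155, 0.179 and 0.145 FPKM in Victoria. The libraries of each cultivar lay close together and far from those of the other. The log2 difference was 3.75 (SE 0.15; limma adjusted p = 0.000403), and the call held with any 1 library left out. Its neighbour in the gene order, VvUGT VIT_17s0000g07060, had the opposite order, with 0.471, 0.194 and 0.293 FPKM in Centennial Seedless and 1.97, 3.74 and 2.81 FPKM in Victoria. The groups did not overlap, but the log2 difference of -1.52 (SE 0.20; limma adjusted p = 0.012) was not a DEG.

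VvCCR VIT_13s0067g00620, a cinnamoyl-CoA reductase gene, had 6.84, 8.39 and 6.42 FPKM in Centennial Seedless, against 0.458, 0.544 and 0.248 FPKM in Victoria. Every Centennial Seedless library lay above every Victoria library, and the log2 difference was 2.53 (SE 0.17; limma adjusted p = 0.00119). The call was lost only without Victoria 2, at an adjusted p of 0.0109. The other reductase gene, VvCCR VIT_13s0047g00940, had 10.7, 10.1 and 10.8 FPKM in Centennial Seedless, against 27.3, 26.4 and 28.2 FPKM in Victoria. The groups again did not overlap, in the opposite direction, with a log2 difference of -1.29 (SE 0.11; limma adjusted p = 0.00256), which is under the size set for a DEG.

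The short-chain dehydrogenase gene VvSDR VIT_08s0040g01200 had 114, 113 and 142 FPKM in Centennial Seedless, against 37.4, 23.2 and 29.3 FPKM in Victoria. The mean was 4.10-fold higher in Centennial Seedless, with a log2 difference of 2.02 (SE 0.19; limma adjusted p = 0.00398). This call stood near the threshold for size and was made in 1 of the 6 fits with a library left out, with an adjusted p of up to 0.0224.

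All 3 lower candidates were terpene synthase genes. VvTPS VIT_13s0084g00010 was listed at 0 in all 3 Centennial Seedless libraries, against 3.84, 3.23 and 3.28 FPKM in Victoria (limma adjusted p = 0.00062), and the call held with any 1 library left out. VvTPS VIT_13s0067g00050 was also listed at 0 in Centennial Seedless, against 3.85, 4.80 and 2.47 FPKM in Victoria (limma adjusted p = 0.00348). It was called in 1 of the 6 fits with a library left out, with an adjusted p of up to 0.0245. In the 9 libraries of the other cultivars this synthase reached at most 0.201 FPKM, so that Victoria was the cultivar that stood out. It passed the filter only through the Victoria libraries, so its low level elsewhere is no separate evidence.

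VvTPS VIT_00s0271g00010 had 0.133, 0.344 and 0.0994 FPKM in Centennial Seedless, against 4.34, 6.12 and 4.74 FPKM in Victoria. The groups did not overlap, and the log2 difference was -2.34 (SE 0.17; limma adjusted p = 0.00153). Without Centennial Seedless 2 or 3 the adjusted p was 0.0107 and 0.0138. The other muscat cultivars lay on either side of Victoria, with 26.2, 31.4 and 28.5 FPKM in Shine muscat, above every Victoria library, and 0.912, 0.203 and 0.82 FPKM in Midknight Beauty, below every Victoria library.

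The other 3 synthases had at most 1.27 FPKM in any library of both cultivars. VvTPS VIT_13s0067g00380 was listed at 0 in all 6 libraries. VvTPS VIT_13s0067g00370 was listed at 0 in Centennial Seedless, against 0.254, 0 and 0.239 FPKM in Victoria (limma adjusted p = 0.383). The newly assembled VvTPS gene Vitis_vinifera_newGene_3216 had 1.27, 0.476 and 0.128 FPKM in Centennial Seedless, against 0.0233, 0 and 0 FPKM in Victoria, which did not overlap (log2 difference 0.63, SE 0.25; limma unadjusted p = 0.0446, adjusted p = 0.267) but did not pass the adjusted threshold. No terpene synthase among the candidates was thus called higher in Centennial Seedless.

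At the entry of the precursor pathway, VvDXS VIT_05s0020g02130 had 36.0, 36.9 and 36.0 FPKM in Centennial Seedless, against 16.3, 16.2 and 23.2 FPKM in Victoria. The mean was 1.95-fold higher in Centennial Seedless and the groups did not overlap, but the log2 difference of 0.95 (SE 0.16; limma adjusted p = 0.0265) did not pass. The beta-glucosidase gene VvBGLU VIT_03s0063g02490 had the largest difference among the candidates not called, with 83.6, 54.4 and 56.7 FPKM in Centennial Seedless, against 3.96, 8.67 and 13.2 FPKM in Victoria. Its log2 difference was 2.88 (SE 0.40; limma adjusted p = 0.0146), with every Centennial Seedless library above every Victoria library. With all 15 libraries in the fit it passed both thresholds (limma adjusted p = 4.23e-05). Its means were 58.4 FPKM in Shine muscat, 9.59 FPKM in Midknight Beauty and 24.4 FPKM in Summer Black, beside 8.6 FPKM in Victoria.

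Among the alcohol dehydrogenase genes, VvADH VIT_00s0615g00030 had 27.8, 25.6 and 33.3 FPKM in Centennial Seedless, against 6.22, 10.8 and 12.5 FPKM in Victoria (log2 difference 1.5, SE 0.26; limma adjusted p = 0.0303). VvADH VIT_00s0615g00020 had 1.86, 1.67 and 2.15 FPKM in Centennial Seedless, against 0.36, 0.26 and 0.85 FPKM in Victoria (0.97, SE 0.18; limma adjusted p = 0.0351). In both the groups did not overlap. VvADH VIT_00s0615g00010 reached at most 0.32 FPKM in Centennial Seedless and 0.0745 FPKM in Victoria.

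VvCYP VIT_08s0007g07730, which codes for a cytochrome P450, had 19.9, 37.8 and 36.1 FPKM in Centennial Seedless, against 60.9, 56.7 and 78.4 FPKM in Victoria (log2 difference -1.08, SE 0.27; limma adjusted p = 0.094). The groups did not overlap, and Centennial Seedless 1 was the lowest. Of the transcription factor genes, VvGATA VIT_15s0024g00980 had 1.2, 0.723 and 0.850 FPKM in Centennial Seedless, against 0.220, 0.175 and 0.188 FPKM in Victoria (0.68, SE 0.12; limma adjusted p = 0.0274). VvMYB VIT_17s0000g07950 had 6.41, 7.42 and 4.08 FPKM in Centennial Seedless, against 2.77, 2.59 and 2.98 FPKM in Victoria (0.85, SE 0.23; limma adjusted p = 0.113). VvMYB VIT_03s0063g02620 varied most within a cultivar, with 7.63, 2.30 and 3.19 FPKM in Centennial Seedless and 4.68, 86.3 and 19.2 FPKM in Victoria, which overlapped (limma adjusted p = 0.354).

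**Figure D2:**
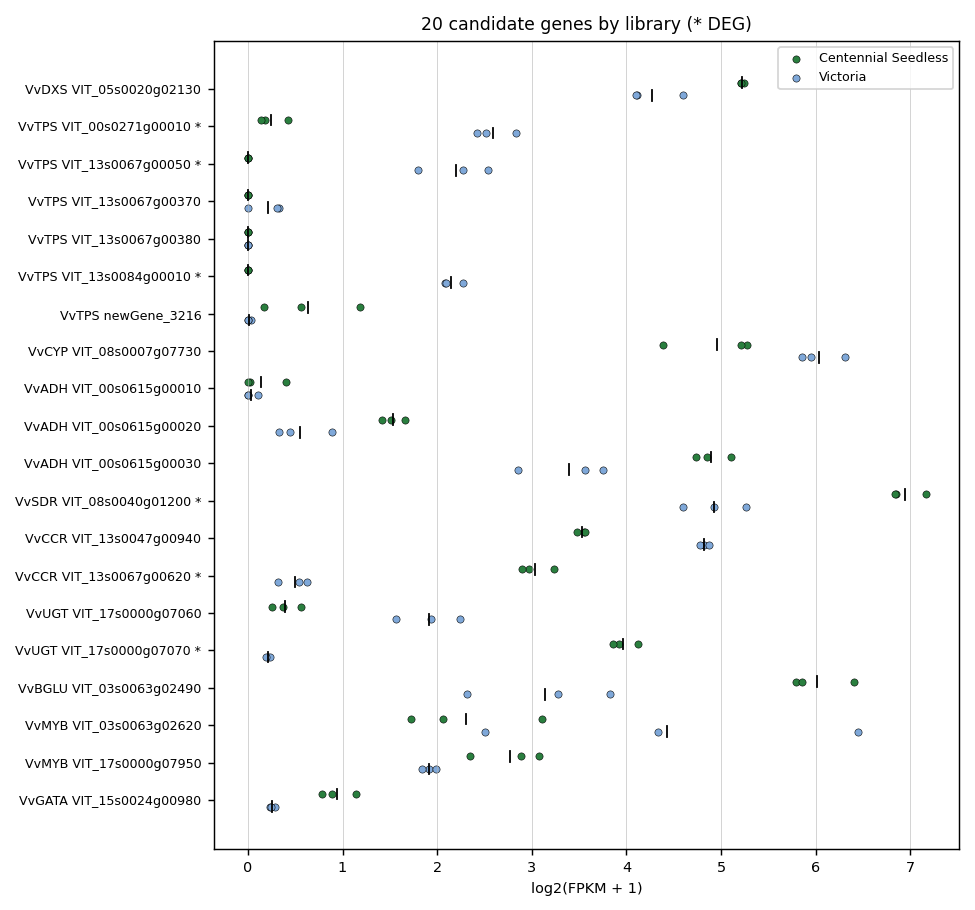
Log2(FPKM + 1) of the 20 candidate genes (x axis), ordered by role down the page, with 1 point per library, Centennial Seedless above Victoria in each row, and a vertical bar at the mean. An asterisk marks the 6 DEGs; 16 of the 20 genes show no overlap between the 2 cultivars.

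A further 14 genes whose expression the study tabulated, without a name, held 2 DEGs higher in Centennial Seedless (14.3%, beside 0.428% of all genes tested) and 3 lower (21.4%, beside 0.493%). They too were chosen by the study on these libraries, and their median log2 difference was -0.83. VIT_03s0063g00450 had 8.32, 6.12 and 5.05 FPKM in Centennial Seedless, against 0, 0.133 and 0 FPKM in Victoria (log2 difference 2.82, SE 0.19; limma adjusted p = 0.00131). VIT_00s0218g00010 had 7.28, 4.91 and 11.4 FPKM in Centennial Seedless, against 0, 0 and 0.0919 FPKM in Victoria (3.04, SE 0.28; limma adjusted p = 0.00353). In both, every Centennial Seedless library lay above every Victoria library. They were called in 3 and 2 of the 6 fits with a library left out, with an adjusted p of up to 0.0118 and 0.0265.

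Of the 3 lower genes, VIT_16s0022g01160 had 1.59, 0.678 and 1.13 FPKM in Centennial Seedless, against 11.3, 10.1 and 13.9 FPKM in Victoria (log2 difference -2.60, SE 0.23; limma adjusted p = 0.00295). VIT_06s0004g02060 had 0.119, 0.751 and 0.525 FPKM in Centennial Seedless, against 8, 13.1 and 12.9 FPKM in Victoria (-3.07, SE 0.27; limma adjusted p = 0.00295). The newly assembled gene Vitis_vinifera_newGene_3002 was listed at 0 in all 3 Centennial Seedless libraries, against 5.91, 7.03 and 4.33 FPKM in Victoria (limma adjusted p = 0.00114). It was listed at 0 in the other 9 libraries as well, so that of the 15 libraries only those of Victoria had it. The filter thus admitted this gene only through Victoria, and its absence elsewhere is no separate evidence. With a library left out, VIT_16s0022g01160 and VIT_06s0004g02060 were each called in 1 of the 6 fits, with an adjusted p of up to 0.0205 and 0.02, and Vitis_vinifera_newGene_3002 in 4, with an adjusted p of up to 0.0112.

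Some tabulated genes differed at high levels without reaching the size of a DEG. VIT_19s0015g02880 had 1002, 1155 and 833 FPKM in Centennial Seedless, against 2783, 2981 and 3615 FPKM in Victoria (log2 difference -1.65, SE 0.20; limma adjusted p = 0.00808). VIT_19s0093g00190 had 807, 619 and 534 FPKM in Centennial Seedless, against 315, 150 and 204 FPKM in Victoria (1.59, SE 0.30; limma adjusted p = 0.0398). By contrast, VIT_04s0079g00690 was near 0 in both cultivars compared, with at most 0.477 FPKM in Centennial Seedless and 0.0553 FPKM in Victoria. It had 304 FPKM or more in every library of Midknight Beauty and Summer Black. None of these 3 was a DEG.

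The strongest differences of the comparison lay outside both lists, in genes for which the sources used here give no name or role. VIT_01s0011g05110 had 4.28, 0.400 and 4.39 FPKM in Centennial Seedless, against 11126, 3613 and 2854 FPKM in Victoria. In Victoria the transcript ranked 10, 17 and 23 among all genes of the library and made up 1.46, 0.502 and 0.378% of the summed FPKM, whereas in Centennial Seedless it ranked no higher than 11878. The log2 difference was -10.47 (SE 0.72; limma adjusted p = 0.00133), and the call was lost only without Victoria 2, at an adjusted p of 0.0115.

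VIT_05s0049g00770 had 28.7, 10.1 and 21.1 FPKM in Centennial Seedless, against 1724, 1964 and 2819 FPKM in Victoria. The log2 difference was -6.78 (SE 0.39; limma adjusted p = 0.000919), and the call held with any 1 library left out. VIT_05s0049g00840 on the same scaffold had 11.4, 3.21 and 3.72 FPKM in Centennial Seedless, against 103, 117 and 164 FPKM in Victoria (-4.34, SE 0.44; limma adjusted p = 0.00477). VIT_05s0049g02240, also on it, had 0.324, 0.274 and 0.749 FPKM in Centennial Seedless, against 75.8, 49.1 and 21.9 FPKM in Victoria (-4.96, SE 0.45; limma adjusted p = 0.00338). No library of either cultivar overlapped in these genes, but VIT_05s0049g00840 and VIT_05s0049g02240 were each called in only 1 of the 6 fits with a library left out, with an adjusted p of up to 0.0309 and 0.0245.

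VIT_00s0324g00050 had 0.106, 0.722 and 0.413 FPKM in Centennial Seedless, against 71.8, 49.8 and 51.0 FPKM in Victoria (log2 difference -5.37, SE 0.24; limma adjusted p = 0.000446). VIT_07s0130g00250 had 0, 0.177 and 0.054 FPKM in Centennial Seedless, against 29.5, 32.9 and 40.0 FPKM in Victoria (-5.02, SE 0.18; limma adjusted p = 0.000367). Both were called with any 1 library left out. Some abundant genes were lower to a smaller degree. VIT_07s0031g02630 averaged 35.9 ± 5.62 FPKM in Centennial Seedless and 191 ± 39.2 FPKM in Victoria, and was called in 3 of the 6 fits. VIT_01s0137g00430 averaged 57.3 ± 7.7 FPKM in Centennial Seedless and 246 ± 61.8 FPKM in Victoria, and VIT_05s0077g01150 averaged 30.8 ± 9.19 FPKM in Centennial Seedless and 248 ± 56.1 FPKM in Victoria (SD, n = 3 each), each called in 1 of the 6.

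On the higher side, VIT_07s0185g00050 had 41.8, 33.3 and 46.0 FPKM in Centennial Seedless and was listed at 0 in all 3 Victoria libraries (limma adjusted p = 0.000305). VIT_11s0052g01770 had 31.9, 25.4 and 28.2 FPKM in Centennial Seedless and was also listed at 0 in all 3 Victoria libraries (limma adjusted p = 0.000305). VIT_04s0008g04910 had 38.3, 40.3 and 38.6 FPKM in Centennial Seedless, against 0.374, 0.258 and 0.472 FPKM in Victoria (log2 difference 4.87, SE 0.15; limma adjusted p = 0.000305). These 3 genes were called with any 1 library left out.

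VIT_10s0003g01120 had 30.4, 25.8 and 31.2 FPKM in Centennial Seedless, against 0.890, 0.585 and 0.362 FPKM in Victoria (log2 difference 4.23, SE 0.19; limma adjusted p = 0.000446). VIT_04s0008g05380 had 21.6, 16.6 and 16.6 FPKM in Centennial Seedless, against 0.0687, 0.0883 and 0 FPKM in Victoria (4.18, SE 0.17; limma adjusted p = 0.000403). VIT_13s0067g02040 had 16.6, 16.6 and 16.1 FPKM in Centennial Seedless, against 0.582, 0.601 and 0.470 FPKM in Victoria (3.49, SE 0.14; limma adjusted p = 0.000403). All 3 were called with any 1 library left out, and no library overlapped.

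Other high DEGs rested on fewer libraries. VIT_00s0260g00070 had 122, 62.9 and 35.1 FPKM in Centennial Seedless, against 1.21, 1.44 and 1.17 FPKM in Victoria, a wide spread in Centennial Seedless (log2 difference 4.86, SE 0.43; limma adjusted p = 0.00318). It was called in 2 of the 6 fits with a library left out, with an adjusted p of up to 0.0215. VIT_12s0034g01970 was the most abundant of the higher DEGs, with 599, 421 and 473 FPKM in Centennial Seedless, against 73.0, 35.3 and 58.8 FPKM in Victoria (3.18, SE 0.29; limma adjusted p = 0.0032). Its mean was 8.93-fold higher in Centennial Seedless, and it was called in 2 of the 6 fits, with an adjusted p of up to 0.0206. VIT_02s0025g03260, VIT_01s0026g02400, VIT_07s0005g03140 and VIT_05s0051g00180 completed the 12 largest, with log2 differences of 3.45, 3.40, 3.38 and 3.37, and were called in 5, 4, 2 and 1 of the 6 fits.

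**Figure D3:**
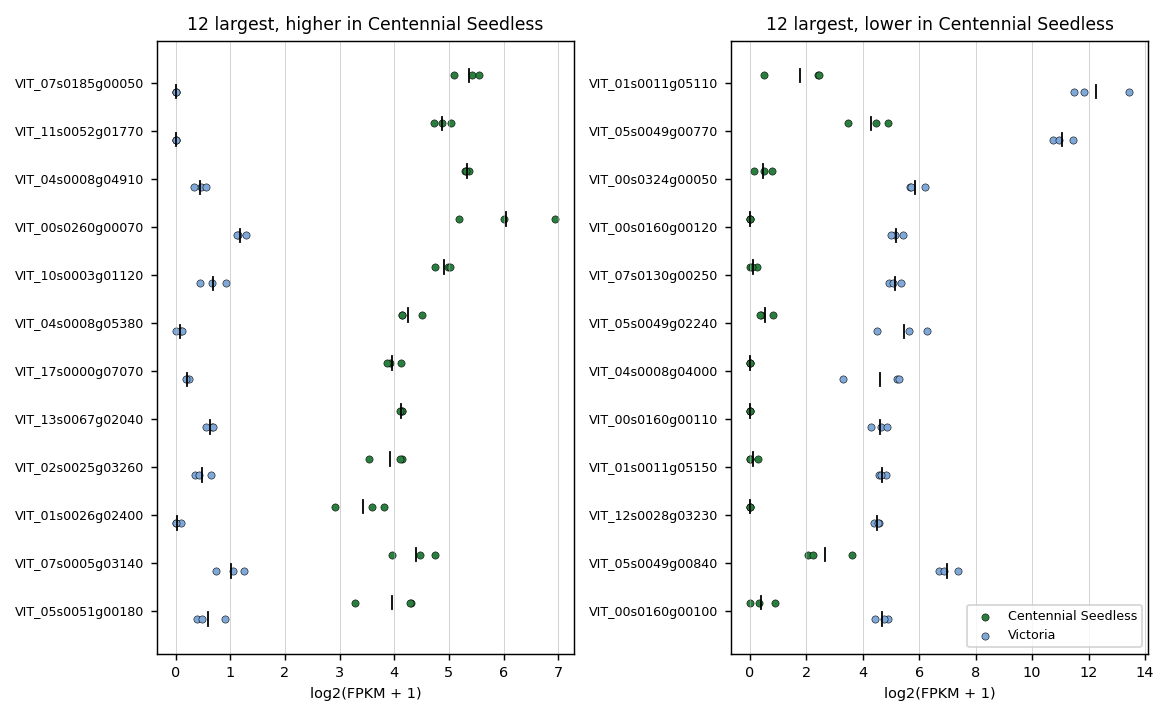
Log2(FPKM + 1) (x axis) of the 12 DEGs with the largest log2 difference in each direction, with 1 point per library, Centennial Seedless above Victoria in each row, and a vertical bar at the mean. In every row the 2 cultivars lie apart; VIT_07s0185g00050 and VIT_11s0052g01770 are listed at 0 in Victoria, and 4 of the lower genes are listed at 0 in Centennial Seedless.

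Many DEGs were seen in 1 of the 2 cultivars only. Of the 78 higher DEGs, 12 (15.4%) were listed at 0 in all 3 Victoria libraries, and of the 90 lower DEGs, 24 (26.7%) were listed at 0 in all 3 Centennial Seedless libraries. Of these 24, 9 were above 0 in all 9 libraries of the other 3 cultivars, so that Centennial Seedless was alone in being listed at 0, and 1, Vitis_vinifera_newGene_3002, was at 0 in all 9. Of the 12 at 0 in Victoria, 0 were above 0 in all 9 libraries of the other cultivars and 0 were at 0 in all 9.

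Beside the genes already given, VIT_12s0028g03230 was listed at 0 in Centennial Seedless, against 20.2, 22.9 and 22.2 FPKM in Victoria (limma adjusted p = 0.000305). VIT_09s0002g08500 was listed at 0 in Centennial Seedless, against 9.03, 9.24 and 12.5 FPKM in Victoria (limma adjusted p = 0.000558). Both were called with any 1 library left out. VIT_04s0008g04000 was listed at 0 in Centennial Seedless, against 36.4, 38.1 and 8.91 FPKM in Victoria, where Victoria 3 was low (limma adjusted p = 0.00796), and was called in 1 of the 6 fits. In the other direction, VIT_10s0116g01390 had 8.36, 10.7 and 8.93 FPKM in Centennial Seedless and was listed at 0 in Victoria (limma adjusted p = 0.000446). This gene was listed at 0 in some libraries of other cultivars and not in the rest, with 8.82, 0 and 8.13 FPKM in Shine muscat and 0, 0 and 8.96 FPKM in Midknight Beauty, and its call was lost with all 15 libraries in the fit (SE 0.88; limma adjusted p = 0.0314). Vitis_vinifera_newGene_1395 had 8.22, 3.85 and 4.35 FPKM in Centennial Seedless and was listed at 0 in Victoria (limma adjusted p = 0.00417, called in 1 of the 6 fits).

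The deposited table adds newly assembled genes to the annotated ones. Of 745 tested, 19 (2.55%) were DEGs, 5 higher and 14 lower in Centennial Seedless, beside 0.921% of all genes tested. Genes on scaffolds not placed on a chromosome, whose IDs begin with VIT_00, had 33 DEGs among 1312 tested (2.52%), 14 higher and 19 lower. The IDs of placed genes carry the chromosome number. Chromosome 5 had 2 higher and 11 lower DEGs among 975 tested (1.33%), and chromosome 11 had 7 higher and 1 lower among 781 (1.02%). Chromosome 6 had 0 higher and 2 lower among 936 (0.214%). Over all genes tested 0.428% were higher and 0.493% lower DEGs. The share of DEGs ran from 0.175% on chromosome 15 to 1.33% on chromosomes 5 and 13. These chromosomes were picked by their counts. No test was made between these classes.

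Some DEGs were neighbours. With at most 3 genes between members in the order of the IDs on a scaffold, 33 of the 168 DEGs (19.6%) fell into 13 runs of the same direction, 7 higher and 6 lower in Centennial Seedless. Of these runs, 10 were pairs. Neighbouring genes with similar sequence may share reads, which was not tested.

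The longest run held 7 lower DEGs on the unplaced scaffold VIT_00s0160, from VIT_00s0160g00020 to VIT_00s0160g00210. VIT_00s0160g00120 was listed at 0 in all 3 Centennial Seedless libraries, against 34.6, 42.2 and 30.6 FPKM in Victoria (limma adjusted p = 0.000305). It was also listed at 0 in 2 Midknight Beauty libraries, with 5.16 FPKM in the third. VIT_00s0160g00110 was listed at 0 in Centennial Seedless, against 24.2, 27.8 and 18.8 FPKM in Victoria (limma adjusted p = 0.000403). Both were called with any 1 library left out.

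VIT_00s0160g00130 had 3.57, 2.51 and 2.01 FPKM in Centennial Seedless, against 34.6, 38.2 and 31.3 FPKM in Victoria (log2 difference -3.29, SE 0.20; limma adjusted p = 0.000975). VIT_00s0160g00100 had 0.862, 0.258 and 0 FPKM in Centennial Seedless, against 20.4, 28.7 and 25.7 FPKM in Victoria (-4.27, SE 0.28; limma adjusted p = 0.00114). VIT_00s0160g00020, VIT_00s0160g00160 and VIT_00s0160g00210 were lower genes of this run at smaller levels, with Victoria means of 4.91, 6.13 and 3.85 FPKM and log2 differences of -2.31, -2.68 and -2.15. With a library left out, the calls of VIT_00s0160g00020, VIT_00s0160g00100, VIT_00s0160g00130, VIT_00s0160g00160 and VIT_00s0160g00210 were made in 1, 4, 5, 3 and 3 of the 6 fits, with an adjusted p of at most 0.037.

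Over the whole scaffold VIT_00s0160, which was examined after these values were seen, 12 of 28 genes were tested, 8 were DEGs and all 12 had every Centennial Seedless library below every Victoria library, beside 10.6% of all genes tested. The scaffold was picked for its run, and no DEG overlapped between the cultivars, so the 7 DEGs of the run were lower without overlap by selection. VIT_00s0160g00330, the DEG outside the run, passed the filter only through the Victoria libraries. The count of 12 is thus no separate evidence. The median log2 difference of the 12 was -2.30. The cultivar that stood apart was not the same along the run. VIT_00s0160g00100, VIT_00s0160g00110, VIT_00s0160g00120 and VIT_00s0160g00130 were higher in Victoria than in each of the 4 other cultivars, whereas VIT_00s0160g00020 and VIT_00s0160g00160 were lower in Centennial Seedless than in each of the 4 others.

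A second lower run held VIT_01s0011g05110 and VIT_01s0011g05150. VIT_01s0011g05150 had 0.221, 0 and 0 FPKM in Centennial Seedless, against 27.2, 22.7 and 23.8 FPKM in Victoria (log2 difference -4.57, SE 0.17; limma adjusted p = 0.000397). Between them, VIT_01s0011g05140 was listed at 0 in Centennial Seedless, against 71.0, 16.6 and 11 FPKM in Victoria (limma adjusted p = 0.0148), and VIT_01s0011g05120 was listed at 0 in Centennial Seedless, against 10.8, 2.02 and 2.56 FPKM in Victoria. Neither was a DEG. The 4 genes tested in this stretch of 5 were all lower in each Centennial Seedless library than in any Victoria library, beside 10.6% of all genes tested. The stretch was bounded by its DEGs, so VIT_01s0011g05110 and VIT_01s0011g05150 were lower by selection. In the tested genes beside the stretch, VIT_01s0011g05060, VIT_01s0011g05170 and VIT_01s0011g05190, the cultivars overlapped.

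A pair of runs of 3 genes were higher in Centennial Seedless. On chromosome 12, VIT_12s0035g00730 had 48.4, 52.6 and 48.7 FPKM in Centennial Seedless, against 6.51, 6.30 and 7.17 FPKM in Victoria, and its mean was 7.5-fold higher (log2 difference 2.73, SE 0.11; limma adjusted p = 0.000403). VIT_12s0035g00740 had 55.6, 61.0 and 51.3 FPKM in Centennial Seedless, against 13.5, 14.4 and 11.7 FPKM in Victoria, 4.24-fold higher (2.0, SE 0.12; limma adjusted p = 0.00102). VIT_12s0035g00750 had 55.6, 52.8 and 47.4 FPKM in Centennial Seedless, against 7.92, 8.25 and 8.74 FPKM in Victoria, 6.25-fold higher (2.51, SE 0.11; limma adjusted p = 0.000446). VIT_12s0035g00730 and VIT_12s0035g00750 were called with any 1 library left out and VIT_12s0035g00740, whose difference stood at the threshold, in 4 of the 6 fits.

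The 3 genes were at nearly the same level in Centennial Seedless, and their neighbours on both sides were not DEGs. VIT_12s0035g00720 had 37.7, 38.7 and 45.2 FPKM in Centennial Seedless, against 30.4, 33.5 and 36.9 FPKM in Victoria. VIT_12s0035g00760 had 24.1, 28.3 and 22.1 FPKM in Centennial Seedless, against 23.4, 26.6 and 19.6 FPKM in Victoria, which overlapped.

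The other run of 3 lay on the unplaced scaffold VIT_00s0279, where all members were listed at 0 in Victoria. VIT_00s0279g00030 had 4.13, 4.62 and 4.67 FPKM in Centennial Seedless (limma adjusted p = 0.000446), VIT_00s0279g00040 had 5.32, 3.81 and 3.82 FPKM (limma adjusted p = 0.000997), and VIT_00s0279g00050 had 3.89, 2.82 and 3.31 FPKM (limma adjusted p = 0.000975). VIT_00s0279g00040 and VIT_00s0279g00050 each lost the call without Victoria 2, at an adjusted p of 0.0111 and 0.0107. Shine muscat resembled Victoria in these genes, with at most 0.0775 FPKM, whereas Midknight Beauty and Summer Black had between 2.68 and 10.5 FPKM.

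**Figure D4:**
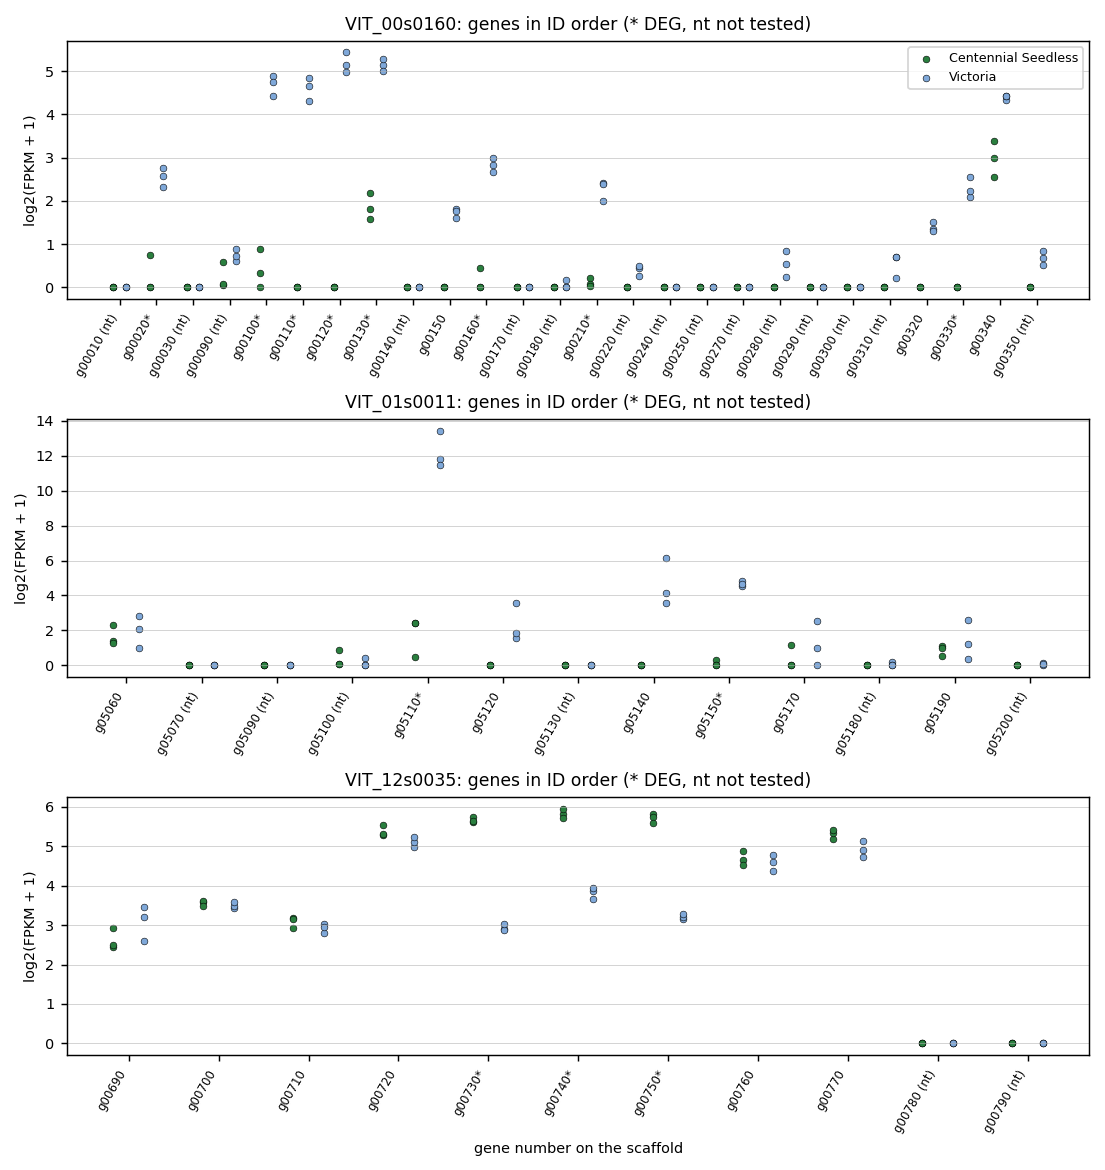
Log2(FPKM + 1) (y axis) of neighbouring genes in ID order (x axis, not to scale) on scaffolds VIT_00s0160, VIT_01s0011 and VIT_12s0035, with 1 point per library, Centennial Seedless left of Victoria for each gene. Asterisks mark DEGs and nt marks genes not tested; on VIT_12s0035 the 3 marked genes stand out from flanking genes that were not called.

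Among the pairs, 2 were listed at 0 or nearly so in Centennial Seedless. VIT_18s0041g01650 and VIT_18s0041g01680 were at 0 in all 3 Centennial Seedless libraries, against means of 4.21 ± 0.305 and 5.5 ± 0.693 FPKM in Victoria (SD, n = 3 each; limma adjusted p = 0.000466 and 0.000558). VIT_13s0064g00240 was listed at 0 in Centennial Seedless, against 5.22, 5.80 and 12.8 FPKM in Victoria (limma adjusted p = 0.00512), and VIT_13s0064g00260 had 0.373, 0.106 and 0.186 FPKM in Centennial Seedless, against 15.5, 21.2 and 24.1 FPKM in Victoria (log2 difference -4.11, SE 0.22; limma adjusted p = 0.000682). On the same scaffold, VIT_13s0064g00800 and VIT_13s0064g00810 were 12.1-fold and 4.44-fold higher in Centennial Seedless (limma adjusted p = 0.000997 and 0.00108), so that the scaffold held pairs in both directions. With a library left out, VIT_13s0064g00240, VIT_13s0064g00800 and VIT_13s0064g00810 were called in 1, 5 and 3 of the 6 fits, with an adjusted p of up to 0.0325, 0.0101 and 0.0102, and VIT_13s0064g00800 was not called with all 15 libraries in the fit (limma adjusted p = 0.0139). These pairs were named after their values were seen.

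Of the pairs that came first in the order of the IDs, VIT_03s0063g00710 and VIT_03s0063g00730 were lower, with means of 3.64 ± 1.32 and 2.91 ± 1.09 FPKM in Centennial Seedless and 19.3 ± 1.4 and 16.7 ± 2.14 FPKM in Victoria (limma adjusted p = 0.00525 and 0.0063). VIT_03s0088g00180 and VIT_03s0088g00190 were higher, with means of 5.09 ± 0.628 and 5.83 ± 1.18 FPKM in Centennial Seedless and 0.333 ± 0.316 and 0.201 ± 0.153 FPKM in Victoria (SD, n = 3 each; limma adjusted p = 0.00407 and 0.0019). With a library left out these 4 genes were called in 1, 0, 1 and 3 of the 6 fits, with an adjusted p of up to 0.0416.

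In a fit of all 15 libraries, Centennial Seedless stood apart from each of the 4 other cultivars, by a log2 difference of at least 1 and an adjusted p of at most 0.01 in all 4 contrasts, in 90 genes (0.493%), 49 higher (0.269%) and 41 lower (0.225%). Victoria stood apart in 84 genes (0.461%), 61 higher (0.334%) and 23 lower (0.126%). These splits by direction depended on the processing. With a filter at 5 FPKM they were 18 higher and 35 lower for Centennial Seedless, and 20 and 16 for Victoria. With a pseudocount of 0.1 they were 38 and 79 for Centennial Seedless, and 46 and 48 for Victoria. Of the 168 DEGs, 41 (24.4%) were genes in which Centennial Seedless stood apart, 30 (17.9%) were genes in which Victoria did, 1 of which was shared, and in 98 (58.3%) neither did. The DEGs and the contrasts of the other cultivars with Victoria share the Victoria libraries, so that these shares describe the genes and are not independent of the calls. The shared gene was VIT_05s0049g00770, at 205, 250 and 165 FPKM in Shine muscat, 373, 201 and 111 FPKM in Midknight Beauty and 952, 300 and 217 FPKM in Summer Black, all between the levels of Centennial Seedless and Victoria.

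The 5 lower genes with the clearest separation of Centennial Seedless included 3 neighbours of a single stretch. VIT_01s0011g05110 had between 3422 and 8292 FPKM in the 9 libraries of Shine muscat, Midknight Beauty and Summer Black, all far above the highest Centennial Seedless value of 4.39 FPKM. VIT_01s0011g05140 had between 15.5 and 235 FPKM in these 9 libraries, against 0 in Centennial Seedless. VIT_01s0011g05150 had between 10.6 and 1552 FPKM in them and was highest in Summer Black, with 232, 462 and 1552 FPKM. The fifth gene, VIT_00s0231g00020, had 0.249, 0 and 1.28 FPKM in Centennial Seedless, against 22.3, 20.8 and 33.8 FPKM in Victoria (log2 difference -4.20, SE 0.36; limma adjusted p = 0.00292), and between 12.7 and 23.3 FPKM in the other 9. It was called in 1 of the 6 fits with a library left out, with an adjusted p of up to 0.0181.

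Of the 5 higher genes, 2 lay on a single scaffold of chromosome 11. VIT_11s0016g00870 had 7.94, 8.51 and 4.47 FPKM in Centennial Seedless and at most 0.339 FPKM in the other 12 libraries. VIT_11s0016g01020 had 7.37, 11.4 and 5.81 FPKM in Centennial Seedless and at most 0.590 FPKM in the other 12. Both genes passed the filter only through the Centennial Seedless libraries, so their low level elsewhere is no separate evidence. The scaffold held 5 DEGs, all higher, among 426 genes tested (1.17%, beside 0.921% of all genes tested), and the median log2 difference of the 426 was 0.04. The other 3, named after their values were seen, were VIT_11s0016g01530, VIT_11s0016g01650 and VIT_11s0016g01670, with means of 10.9 ± 2.10, 5.05 ± 0.861 and 9.22 ± 2.68 FPKM in Centennial Seedless and 0.767 ± 0.370, 0.0961 ± 0.0834 and 0.0352 ± 0.0312 FPKM in Victoria (SD, n = 3 each). Centennial Seedless stood apart from the 4 other cultivars in these 5 genes. VIT_11s0016g01650 would not have passed the filter without the Centennial Seedless libraries, so its low level elsewhere is no separate evidence either. With a library left out, VIT_11s0016g01020 was called in 0 of the 6 fits (adjusted p between 0.0107 and 0.0219), VIT_11s0016g00870 in 2, VIT_11s0016g01530 in 1, and VIT_11s0016g01650 and VIT_11s0016g01670 in 5 each.

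The other 3 of the higher genes were VIT_07s0185g00050, VIT_01s0026g02400 and VIT_04s0008g01860. None of these 3 would have passed the filter without the Centennial Seedless libraries. VIT_07s0185g00050 was listed at 0 in Shine muscat as in Victoria, and had 13.7, 0.823 and 2.48 FPKM in Summer Black. VIT_01s0026g02400 had 11, 13.0 and 6.51 FPKM in Centennial Seedless and at most 1.83 FPKM in the other 12 libraries. VIT_04s0008g01860 had 7.14, 3.41 and 7.54 FPKM in Centennial Seedless, against 0.0372, 0.226 and 0.256 FPKM in Victoria, and at most 0.309 FPKM elsewhere. It was called in 1 of the 6 fits with a library left out, with an adjusted p of up to 0.0411.

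**Figure D5:**
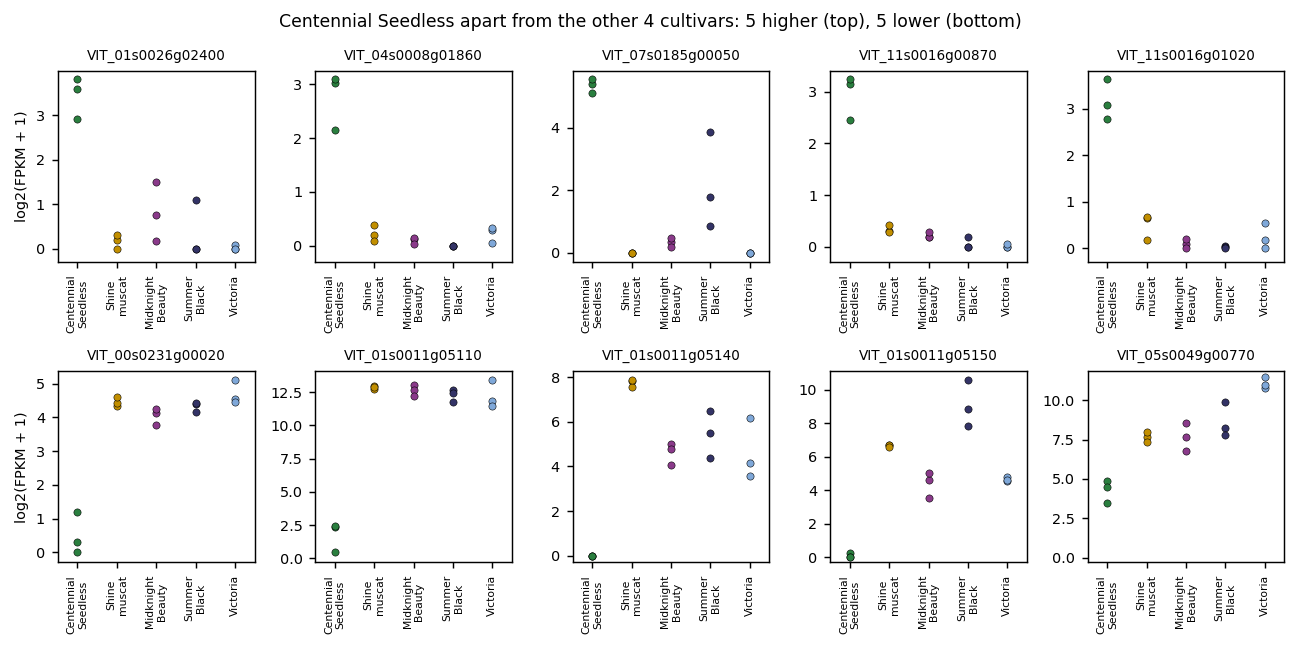
Log2(FPKM + 1) by cultivar (x axis) of the 5 genes in each direction whose least difference between Centennial Seedless and the 4 other cultivars was greatest, with 1 point per library and a y axis of its own in each panel. Centennial Seedless is the highest in the top row and the lowest in the bottom row, in every library.

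The other 3 cultivars were set between the 2 for each DEG. Taking for each DEG the point midway between the Centennial Seedless and Victoria means of log2(FPKM + 1), Shine muscat lay nearer to Victoria in 43 of the 78 higher DEGs (55.1%) and in 46 of the 90 lower DEGs (51.1%). Midknight Beauty, the third muscat cultivar, lay nearer to Victoria in 43 (55.1%) and 56 (62.2%) of them. Summer Black, with strawberry aroma, lay nearer to Victoria in 43 (55.1%) and 46 (51.1%). These counts describe the genes, since the Victoria and Centennial Seedless libraries chose the DEGs, and no test was made on them.

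The threshold on p left out large differences. Of 276 genes with a log2 difference of at least 2 in either direction, 108 (39.1%) were not DEGs, 37 higher and 71 lower in Centennial Seedless. The cultivars did not overlap in 90 of the 108, beside 22.7% of all genes tested. These genes were picked by a large difference, which leaves little room for overlap, so that count is no separate evidence. The largest of the 108 that were not listed at 0 in either cultivar are named after their values were seen. VIT_07s0005g06090 had 0.0278, 2.15 and 3.80 FPKM in Centennial Seedless, against 54.5, 147 and 50.7 FPKM in Victoria (log2 difference -4.91, SE 0.68; limma adjusted p = 0.014). VIT_01s0150g00460 had 218, 174 and 123 FPKM in Centennial Seedless, against 6.51, 28 and 2.91 FPKM in Victoria (4.15, SE 0.72; limma adjusted p = 0.0304). In both, single libraries of 1 cultivar differed several-fold from the others, while no library of the 2 cultivars overlapped.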

How the data were processed

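The members and gene lists were chosen with earlier results of these data known. The authors deposited 1 table of FPKM values for 31924 genes (29927 annotated, 1997 newly assembled) in 15 libraries, with no read counts, so no count model could be run. Per the labels, HISAT2 and StringTie were used, whereas the methods section names another aligner and quantifier, and the library kits named differ likewise; which made the values cannot be told apart, and multi-mapping reads may be shared among paralogues. Here, values were taken as log2(FPKM + 1), genes with at least 1 FPKM in at least 3 of 15 libraries were kept (18238), and limma 3.58.1 in R 4.3.3 compared the cultivars with a variance trend and Benjamini-Hochberg adjustment over all genes kept. The method was tested on simulated data. Named were the study's candidate and tabulated genes; the 12 DEGs each way with the largest difference and no overlap; the 6 each way with the largest difference of mean FPKM; the 5 each way with the highest mean among those at 0 in the other cultivar; the 5 each way in which Centennial Seedless stood furthest apart; and the 6 longest runs of neighbours, ties going by ID order. Alternatives were other pseudocounts, filters, scalings, fits, thresholds and sets of libraries. No ID of the table matched the gene reference at hand (0 matches), so planned lists by annotation and tissue markers could not be formed, and the labelled skin was not checked by markers.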

Additional observations from a re-analysis of the deposited data

Results flagged for a closer look

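Among the DEGs named by the rule, 5 had opposite directions in Centennial Seedless and another cultivar, each against Victoria, with a log2 difference of at least 1 in the other cultivar and an adjusted p of at most 0.01 in limma over all 15 libraries for both and for the difference between them. The terpene synthase gene VIT_00s0271g00010 was lower in Centennial Seedless (log2 difference to Victoria -2.34) and higher in Shine muscat (2.30), a difference of -4.64 (adjusted p = 4.95e-09). Midknight Beauty, the third muscat cultivar, was lower than Victoria in this gene (-1.90, adjusted p = 2.53e-05) and the difference of Centennial Seedless minus Midknight Beauty, -0.44, did not pass the threshold (adjusted p = 0.177). VIT_01s0011g05150 was lower in Centennial Seedless (-4.57) and higher in Summer Black (4.44), a difference of -9.01 (adjusted p = 1.22e-07).

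VIT_12s0034g01970 was higher in Centennial Seedless (3.18) and lower in Shine muscat (-5.30, with at most 0.627 FPKM in its 3 libraries), a difference of 8.48 (adjusted p = 1.15e-08). VIT_07s0005g03140 was higher in Centennial Seedless (3.38) and lower in Summer Black (-1.02), a difference of 4.39 (adjusted p = 2.79e-08), and was also lower in Shine muscat by less than 1 (-0.98, adjusted p = 0.00631). VIT_13s0064g00810 was higher in Centennial Seedless (2.08) and lower in Midknight Beauty (-1.11), a difference of 3.18 (adjusted p = 6.1e-08). VIT_18s0041g01680, named after its values were seen, was listed at 0 in Centennial Seedless and was higher in Summer Black than in Victoria (1.10, adjusted p = 0.00455). VIT_00s0160g00210 was lower in Centennial Seedless (-2.15) and higher in Summer Black by less than 1 (0.83), a difference of -2.98 (adjusted p = 3.45e-07). Each pair of contrasts shares the Victoria libraries.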

How the results depend on the processing

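No DEG changed direction under any alternative in which it was tested. The number of DEGs (168, of which 78 higher and 90 lower) was 353 (156 and 197) with a pseudocount of 0.1, 103 (48 and 55) with no filter, and 356 (163 and 193) with a log2 difference of at least 1 and an adjusted p of at most 0.01. Leaving out 1 library gave 55 to 122 DEGs (20 to 52 higher, 31 to 80 lower), 78 to 207 genes at an adjusted p of at most 0.01, 3 to 5 candidates and 3 to 15 newly assembled genes. The share of higher DEGs ran between 34.4% (without Victoria 3) and 56.8% (without Centennial Seedless 3), against 46.4% with all libraries.

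With Centennial Seedless 1 and Victoria 3 both left out, an alternative chosen after seeing the data, there were 0 DEGs, 0 genes at an adjusted p of at most 0.01, 0 candidates and 0 newly assembled genes, with 3606 genes at an unadjusted p under 0.05. The log2 differences of the 168 DEGs then moved by a median of 0.12 and at most 0.70 (VIT_01s0011g05110), and fewer libraries were fitted. With the library number as a replicate block all these counts were also 0, with 3119 genes at an unadjusted p under 0.05 and 155 of the 168 DEGs at an adjusted p of at most 0.05. The deviations of same-numbered libraries from their cultivar means correlated at -0.27, 0.53 and -0.16 for numbers 1, 2 and 3, across genes. Whether the numbers pair the libraries cannot be told from such correlations, since the 3 deviations of a cultivar sum to 0 and so constrain each other. Pairs of unlike number ran from -0.502 (Centennial Seedless 2 with Victoria 3) to 0.474 (Centennial Seedless 1 with Victoria 3). The libraries left out together thus deviated alike, and the cause was not tested.

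The 384 genes at an adjusted p of at most 0.01 were 199 with a filter at 5 FPKM, 821 with all 15 libraries in the fit and 247 with an adjusted p under 0.005 and a log2 difference of at least 1. The 19 newly assembled DEGs were 69 with a pseudocount of 0.1, 9 with a filter at 5 FPKM, 44 with an adjusted p under 0.005 and a log2 difference of at least 1, and 55 with an adjusted p of at most 0.01 and that difference. Centennial Seedless stood apart in 53 genes and Victoria in 36 with a filter at 5 FPKM, in 31 and 23 with a log2 difference of at least 2, and in 58 to 85 and 62 to 82 with 1 library left out. The causes were not tested. Scaling by median of ratios or by quantiles and a fit with no variance trend kept 163, 160 and 167 of the 168 DEGs. The deposited values carry no read counts, so no limit was set for a value listed at 0.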
